A study of Mus musculus with 35 samples.

Results

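Goblet cell genes were followed across the 7 groups of mice and in each of 35 mice. The genes were the mucin Muc2, the secreted proteins Tff3, Fcgbp, Zg16, Clca1, Reg4 and Klk1, the folding protein Agr2, and the transcription factors Spdef and Atoh1. They were taken by symbol from a list of goblet cell genes, drawn up with earlier results of these data known. Of the 10 listed genes 8 had a probe set of their own among the 19908 genes tested. Fcgbp lay only on 3 probe sets that each list several genes, and no annotated probe set named Klk1, so neither is given a value here.

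Goblet cells are the mucus-secreting cells of the intestinal epithelium, and they are abundant in the colon. Muc2 is the gel-forming mucin that builds the colonic mucus layer, Agr2 is an endoplasmic reticulum protein needed to fold it, and Clca1, Zg16 and Fcgbp are secreted into the same mucus. Zg16 is a lectin that binds bacterial peptidoglycan, Tff3 is a trefoil peptide that aids repair of the epithelium, and Reg4 is a secreted C-type lectin. Atoh1 commits intestinal progenitors to the secretory fate when Notch signalling is low, and Spdef acts after it to mature goblet cells. In whole colon tissue, fewer cells of a type and less RNA per cell cannot be told apart.

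Total RNA (200 ng) from the colon of C57BL/6N mice was hybridised to Affymetrix Mouse Gene 1.0 ST arrays, each mouse on its own array and each group with 5 mice. Conventional mice were wild-type or carried a Reg3a transgene, and each genotype was left on plain water or was given 3% dextran sodium sulfate (DSS), which injures the colon epithelium, for 5 days and then water. Axenic (germ-free) mice, all given 3% DSS for 5 days, formed the other groups: recipients of the flora of wild-type donors, recipients of the flora of transgenic donors, both treated 3 weeks after the transfer, and controls. The label of the controls puts DSS ahead of a transfer of microbes, so they need not have stayed free of flora. One label of the conventional mice also speaks of a transfer of microbes, which their titles and the design text do not, and the titles were followed. Colons were taken on day 12. The sources used here give neither the promoter that drives the transgene nor the species of its sequence, and no sex, cage or batch. All values are log2 signals, so a difference of 1 is a doubling, and a level of one gene cannot be set against that of another.

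The promoters of the 4 members called with DSS in wild-type mice are shown so that their sequences can be set beside their values. RefSeq promoters (build GRCm38.p6) were held for 5 of the 8 measured members, which were Muc2, Agr2, Spdef, Reg4 and Atoh1. The start used for Spdef lies inside the RefSeq span of the gene, which on the minus strand begins at base 27731003. Sequence before that outer start was not searched. Each line gives the 250 bases before the annotated start, 5′ to 3′ on the strand of the gene, with CANNTG, the E-box core that Atoh1 and related factors can bind, in capitals.
Muc2, chr7:141690090-141690339, plus strand: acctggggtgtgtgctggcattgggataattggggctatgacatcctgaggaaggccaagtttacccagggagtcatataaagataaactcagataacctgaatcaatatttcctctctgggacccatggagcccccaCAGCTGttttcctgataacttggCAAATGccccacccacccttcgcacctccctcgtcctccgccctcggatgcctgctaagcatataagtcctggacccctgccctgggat
Agr2, chr12:35992675-35992924, plus strand: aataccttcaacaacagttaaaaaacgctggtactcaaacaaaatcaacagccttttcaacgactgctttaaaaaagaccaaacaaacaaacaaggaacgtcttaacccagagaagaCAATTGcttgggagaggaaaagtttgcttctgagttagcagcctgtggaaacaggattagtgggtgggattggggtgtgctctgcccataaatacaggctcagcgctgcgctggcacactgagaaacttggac
Spdef, chr17:27728952-27729201, minus strand: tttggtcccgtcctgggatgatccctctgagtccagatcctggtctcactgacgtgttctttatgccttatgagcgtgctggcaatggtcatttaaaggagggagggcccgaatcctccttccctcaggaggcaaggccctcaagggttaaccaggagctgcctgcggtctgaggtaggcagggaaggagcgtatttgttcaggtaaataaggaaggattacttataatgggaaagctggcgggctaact
Reg4, chr3:98221906-98222155, plus strand: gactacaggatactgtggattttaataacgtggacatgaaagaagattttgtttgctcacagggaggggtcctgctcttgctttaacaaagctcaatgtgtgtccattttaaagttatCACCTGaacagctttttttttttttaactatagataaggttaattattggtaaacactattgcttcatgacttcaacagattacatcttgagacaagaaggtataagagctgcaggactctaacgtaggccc
In these 250 bases CANNTG was found at 2 places in Muc2, 112 and 89 bases before the start, at 1 place in Agr2 and 1 in Reg4, and at 0 in Spdef. Over the full window of 250 bases before and 50 after the start, with both strands searched, CANNTG was in 3 of the 5 member promoters and in 68% of 15588 promoters of tested genes. CAGCTG, which is 1 form of CANNTG, was in 1 of 5 (Muc2) and in 15.9% of all. TGTTTAC, a forkhead motif, was in 1 of 5 (Reg4, minus strand, 83 bases before the start) and in 3.02% of all. TTTATTG, searched for Cdx2, was in 0 of 5 and 3.59% of all, GGATGT, an Ets-type core, in 1 of 5 and 9.85%, and GGTGTG, a Klf-type core, in 3 of 5 and 18.5%. A match describes letters only, and binding was not measured.

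Array medians ranged from 6.65 to 6.95 and the spread of log2 values within an array from an SD of 1.64 to 2.03. The design text speaks of colon sections and the series title of epithelial cells. The epithelial gene Epcam read between 11.36 and 12.24 and the colonic gene Car1 12.44 or more, and the smooth muscle gene Actg2 was at 10.28 or more, so muscle was part of the samples. Of 8 small intestinal genes Fabp6 stayed at 5.79 or less, whereas Fabp2 ranged from 5.51 to 11.62, with group means from 6.35 in axenic controls to 9.24 in untreated transgenic mice, and Alpi reached 8.52. Some mice stood apart in marker lists. Untreated transgenic mice TG31 and TG28 had the lowest posterior Hox means of that group (6.35 and 6.46, the others 6.70 to 7.24), a list of 10 genes that mark the distal gut. Axenic controls CT517 and CT229 had the lowest means of 14 epithelial genes among the controls (10.77 and 10.97), and the main results that rest on any of these 4 mice are given with and without them. Other mice were unusual too. DSS wild-type mouse WT55 had an epithelial mean of 10.94 and WT56 a small intestinal mean of 6.93. Both stayed in the values given without the 4 mice. Muc2 came within 0.22 of the highest value on an array and lay a median of 0.66 below it. Zg16 came within 0.41 (median 0.69), Tff3 within 0.56 (1.18), Clca1 within 0.78 (1.02) and Agr2 within 0.87 (1.35). Whether the top of the scale limits the changes of these genes was not tested.

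**Figure D1:**
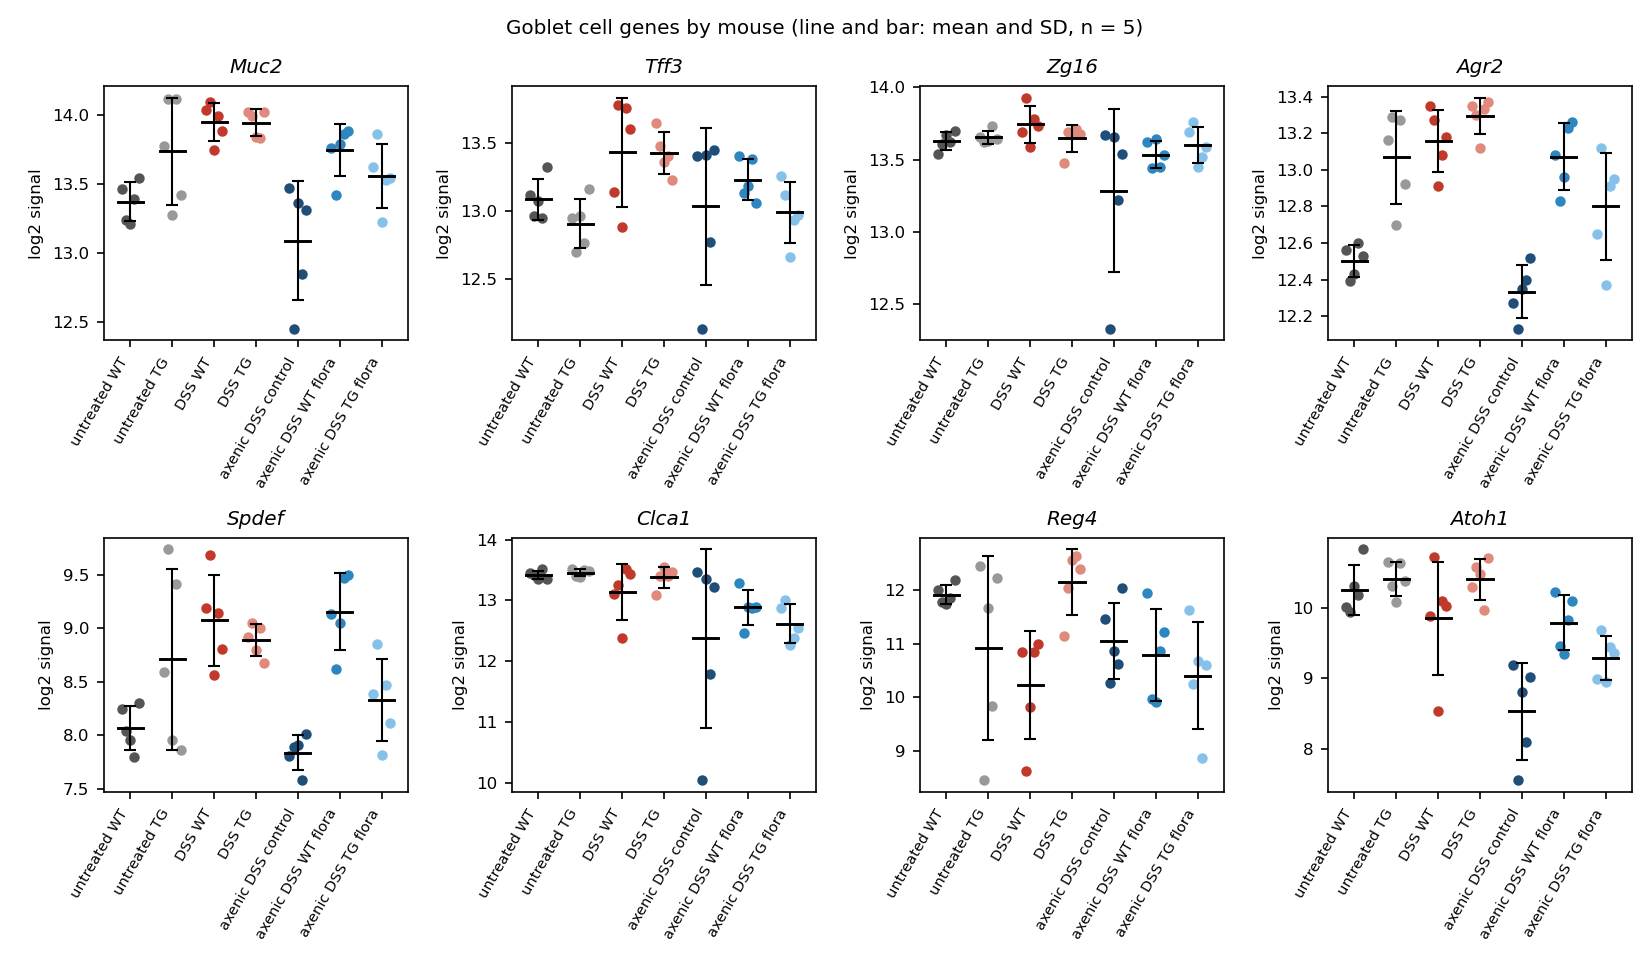
Log2 signal of the 8 measured goblet cell genes in each mouse (points) of the 7 groups on the horizontal axis, with the group mean and SD. Reg4 spans 4.18 log2 units over the 35 mice and Agr2 spans 1.24, and the axenic control CT517 is the lowest mouse for 6 of the 8 genes.

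The question of the DSS comparison in wild-type mice was how the colitis agent changed the goblet cell genes. Muc2, Agr2 and Spdef rose and Reg4 fell. The other 4 members did not pass the test: Tff3, Zg16, Clca1 and Atoh1. The 4 called members of 8 stand beside 5.13% of all genes called by limma at a Benjamini-Hochberg adjusted p under 0.05, 3% higher and 2.13% lower, and the median change of the 8 was 0.23 beside -0.02 for all genes.

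Muc2 read 13.21, 13.24, 13.39, 13.46 and 13.54 in untreated wild-type mice and 13.74, 13.88, 13.99, 14.03 and 14.09 after DSS. Every DSS mouse lay above every untreated mouse. The change was 0.58 (SE 0.10, 95% interval 0.35 to 0.81, limma adjusted p = 0.0108), a level 1.5 times as high. Agr2, the folding protein of Muc2, read 12.39 to 12.60 (median 12.53) in untreated mice and 12.91, 13.08, 13.18, 13.27 and 13.35 after DSS, again with no overlap. Its change was 0.65 (SE 0.10, 95% interval 0.43 to 0.88, limma adjusted p = 0.0067). Over 10 fits with 1 mouse left out the limma adjusted p reached 0.041 for Muc2, 0.0279 for Agr2 and 0.049 for Spdef, so these 3 calls held.

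Spdef, the goblet maturation factor, read 7.80, 7.96, 8.04, 8.25 and 8.30 without DSS and 8.56, 8.81, 9.14, 9.19 and 9.68 with it. It was the member with the largest rise, at 1.01 (SE 0.19, 95% interval 0.58 to 1.43, limma adjusted p = 0.0146), a doubling at 2.01 times. Atoh1, which acts before Spdef in the lineage, read 9.94 to 10.83 without DSS and 8.53, 9.88, 10.02, 10.09 and 10.72 with it. The groups overlapped, mouse WT55 was the low one, and the difference was -0.41 (SE 0.34, 95% interval -1.15 to 0.34, limma adjusted p = 0.727). Mouse WT55 also had the lowest epithelial mean of its group, 10.94, where the untreated mice ranged from 11.56 to 11.83.

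Reg4 read 11.75, 11.78, 11.85, 12.01 and 12.18 in untreated wild-type mice and 8.63, 9.82, 10.85, 10.85 and 10.99 after DSS. All DSS mice were below all untreated mice, and mouse WT56 was far below the rest. The change was -1.68 (SE 0.39, 95% interval -2.55 to -0.82, limma adjusted p = 0.0339), a level 3.21 times lower. Leaving out any 1 of the 5 untreated mice moved the limma adjusted p to between 0.0644 and 0.0875, with changes of -1.62 to -1.73. Over all 10 fits with 1 mouse left out, DSS mice included, the change ran from -1.87 to -1.29. The adjusted p was 0.0654 with all 35 arrays in one limma model. Of all genes, 6.16% had groups without overlap in this comparison.

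The secreted members Tff3, Zg16 and Clca1 overlapped between the groups. Tff3 differed by 0.35 (95% interval -0.04 to 0.74, limma adjusted p = 0.384), and with array weights, which count arrays far from their group less, by 0.63 (limma adjusted p = 0.00067), in a fit that called 29.4% of all genes. Zg16 differed by 0.12 and Clca1 by -0.28 (limma adjusted p = 0.683 and 0.584).

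Posterior Hox means moved with DSS in wild-type mice, from 6.63 to 7.41 in untreated mice to 6.21 to 6.52 after DSS, with 5 of 10 genes called lower. With that mean as a covariate in limma 0 of the 8 members were called, beside 9 genes (0.0452%) of all, with changes of 0.53 for Muc2 (adjusted p = 0.149), 0.62 for Agr2 (0.134), 0.69 for Spdef (0.242) and -1.06 for Reg4 (0.361). With the mean of 16 pancreas genes as a covariate, which ranged from 6.32 to 10.63 without and from 5.95 to 8.03 with DSS, only Agr2 kept its call, beside 2.09% of all genes, and the change of Reg4 was -1.86 (limma adjusted p = 0.0885). Leukocyte genes were higher in 11 of 14, with list means of 6.72 to 7.05 before and 7.33 to 9.39 after DSS. Absorptive colonocyte genes were lower in 5 of 12 and higher in 1, with list means of 10.46 to 10.82 before and 8.98 to 9.94 after DSS, without overlap, and a list median of -0.93. What part the position of the tissue piece or these cells had in the members' changes was not tested.

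In transgenic mice the same DSS comparison called a single member, Tff3, while 4.55% of all genes were called, 3.46% in the higher direction. Tff3 read 12.70, 12.76, 12.95, 12.96 and 13.16 in untreated transgenic mice and 13.23, 13.36, 13.40, 13.48 and 13.65 after DSS. Every DSS mouse was above every untreated mouse, a separation that 8.7% of all genes had, and the change was 0.52 (SE 0.11, 95% interval 0.29 to 0.75, limma adjusted p = 0.0244). The adjusted p rose to 0.0746 without DSS mouse TG48, to 0.052 without DSS mouse TG46 and to 0.058 without untreated mouse TG29. With all 35 arrays in one model it was 0.112, and with the epithelial mean as a covariate the change was 0.33 (limma adjusted p = 0.916), in a fit that called 0% of genes. That mean ranged from 11.52 to 11.74 in untreated and from 11.79 to 11.94 in DSS transgenic mice, also with no overlap, and its part in the change of Tff3 was not tested.

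The members that rose in wild-type mice stood at 0.20 for Muc2 (SE 0.16, limma adjusted p = 0.413), 0.23 for Agr2 (SE 0.12, 0.234) and 0.18 for Spdef (SE 0.33, 0.738) in the transgenic DSS comparison. Reg4 stood at 1.23 (SE 0.68, 95% interval -0.26 to 2.73, limma adjusted p = 0.262). Zg16 (-0.01), Clca1 (-0.08) and Atoh1 (-0.01) were close to 0.

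Untreated transgenic mice TG31 and TG28 weighed on these values. Spdef read 7.86, 7.96, 8.59, 9.41 and 9.74 in that group, and the values above 9 belonged to mice TG28 and TG31. The same mice had the highest Muc2 (14.11 in both) and Agr2 (13.27 and 13.29) and the lowest Reg4, 9.83 and 8.45, where the other 3 mice read 11.66, 12.22 and 12.45. Without both mice the DSS change of Spdef in transgenic mice was 0.75 (SE 0.17, limma adjusted p = 0.0384) and that of Tff3 0.40 (0.0698), while Muc2 was at 0.45 (0.0654), Agr2 at 0.37 (0.0993) and Reg4 at 0.04 (0.951).

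**Figure D2:**
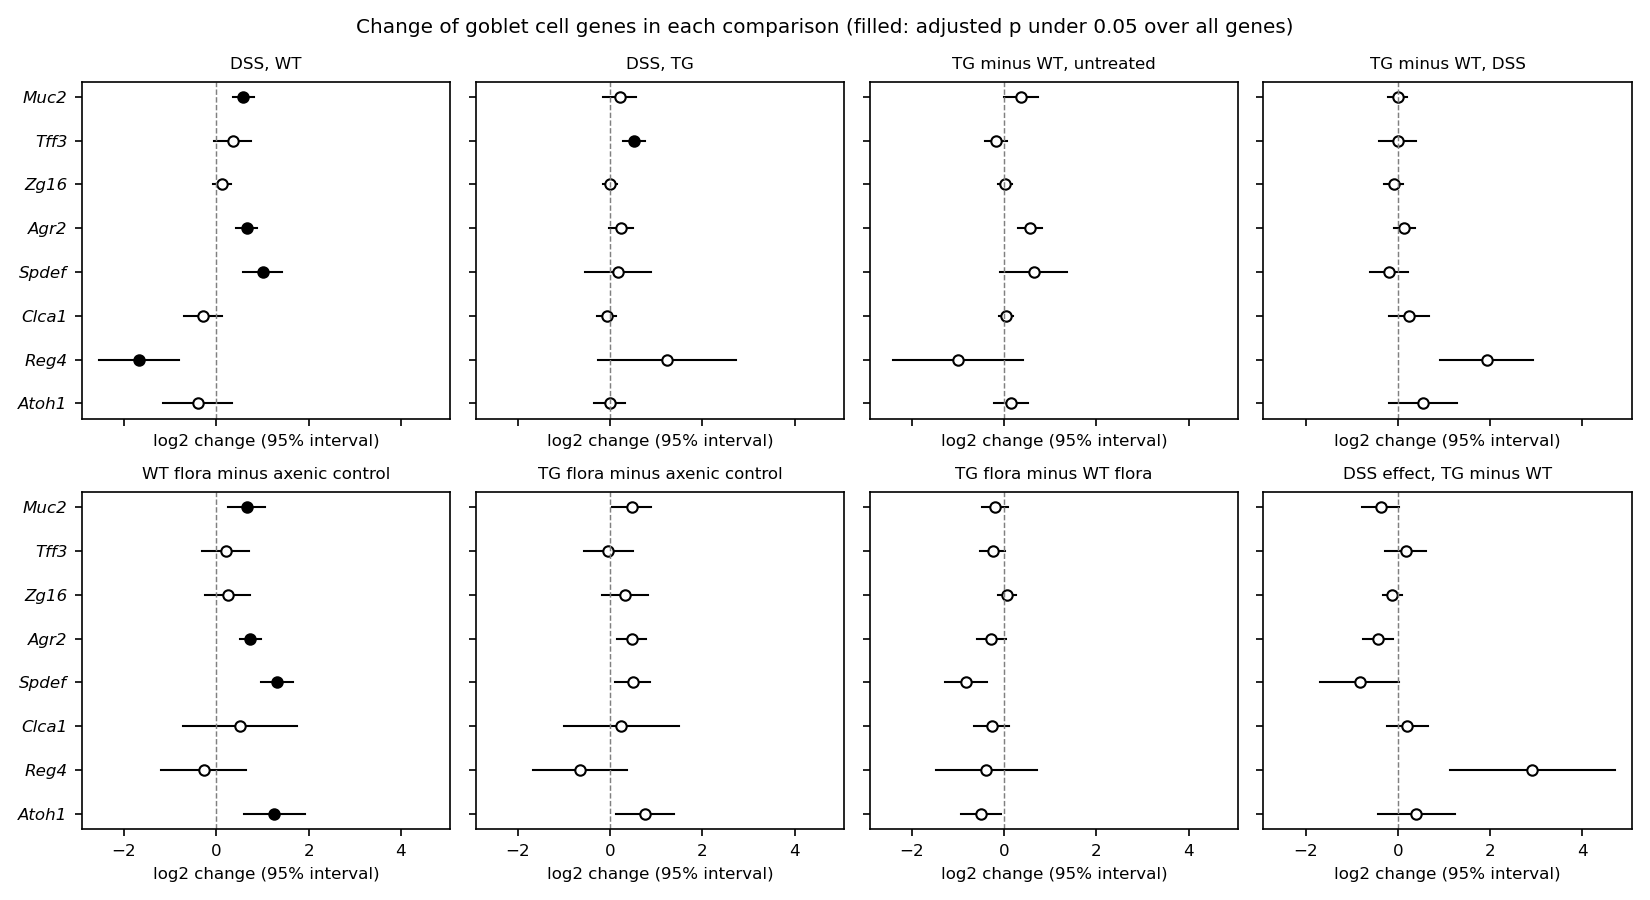
Log2 change of each measured member (points) with its 95% interval (bars) in each comparison, with called members (limma, Benjamini-Hochberg adjusted p under 0.05) filled and the others open. Calls lie in the 2 DSS comparisons and in wild-type flora against axenic controls.

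Whether the transgene altered these genes was asked without and with DSS. Without DSS 0 of 8 members passed, beside 0.0753% of all genes, and 2 members were at an unadjusted limma p under 0.05, Muc2 and Agr2, as were 5% of genes. Agr2 read 12.39 to 12.60 in wild-type and 12.70, 12.92, 13.16, 13.27 and 13.29 in transgenic mice, with no overlap, as in 1.12% of all genes. The difference was 0.56 (SE 0.12, 95% interval 0.31 to 0.82, limma adjusted p = 0.290). It passed with all 35 arrays in one model (limma adjusted p = 0.0455, beside 0.116% of genes called), and without mice TG31 and TG28 it was 0.42 (0.896). Posterior Hox means were 6.63 to 7.41 in wild-type and 6.35 to 7.24 in transgenic mice, and with them as a covariate Agr2 differed by 0.38 (limma adjusted p = 0.837). Without those mice the differences of Muc2 and Spdef went from 0.37 and 0.64 to 0.12 and 0.06, and that of Reg4 from -0.99 (95% interval -2.41 to 0.42) to 0.20.

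With DSS 0 of 8 members passed between the genotypes, beside 0.00502% of all genes. Reg4 had the widest gap: 8.63, 9.82, 10.85, 10.85 and 10.99 in wild-type against 11.14, 12.04, 12.39, 12.57 and 12.63 in transgenic mice. All transgenic mice lay above all wild-type mice, as in 1.57% of genes in either direction. The difference was 1.92 (SE 0.46, 95% interval 0.92 to 2.93, 3.8 times as high, limma adjusted p = 0.310), and Reg4 was the single member at an unadjusted p under 0.05, where 5.17% of genes were. With array weights it was 1.54 (limma adjusted p = 0.0202, beside 1.7% of genes called). Posterior Hox means did not overlap between these groups either, at 6.21 to 6.52 in wild-type and 6.56 to 6.70 in transgenic mice, and with that mean as a covariate the difference of Reg4 was 0.39 (SE 0.67). The absorptive colonocyte list ranged from 8.98 to 9.94 and from 10.10 to 10.54. Atoh1 differed by 0.55 (SE 0.33) and the other 6 by -0.19 to 0.24.

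The difference between the DSS effects of the genotypes was tested in one limma fit of 20 arrays, in which 0.156% of genes were called and 0 of 8 members. Reg4, which fell by 1.68 in wild-type and stood at 1.23 in transgenic mice, gave a difference of 2.92 (SE 0.86, 95% interval 1.12 to 4.71, limma adjusted p = 0.254). Without untreated mice TG31 and TG28 it was 1.73 (0.653). Agr2 gave -0.43 (SE 0.15, 95% interval -0.75 to -0.10, limma adjusted p = 0.426), Spdef -0.83 (0.691) and Muc2 -0.38 (0.723). Tff3, the member called with DSS in transgenic mice, gave 0.17 (SE 0.21, limma adjusted p = 0.933). Reg4 and Agr2 were at an unadjusted p under 0.05, as were 7.42% of genes. A DSS effect that differs between genotypes was therefore not shown for any member.

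**Figure D3:**
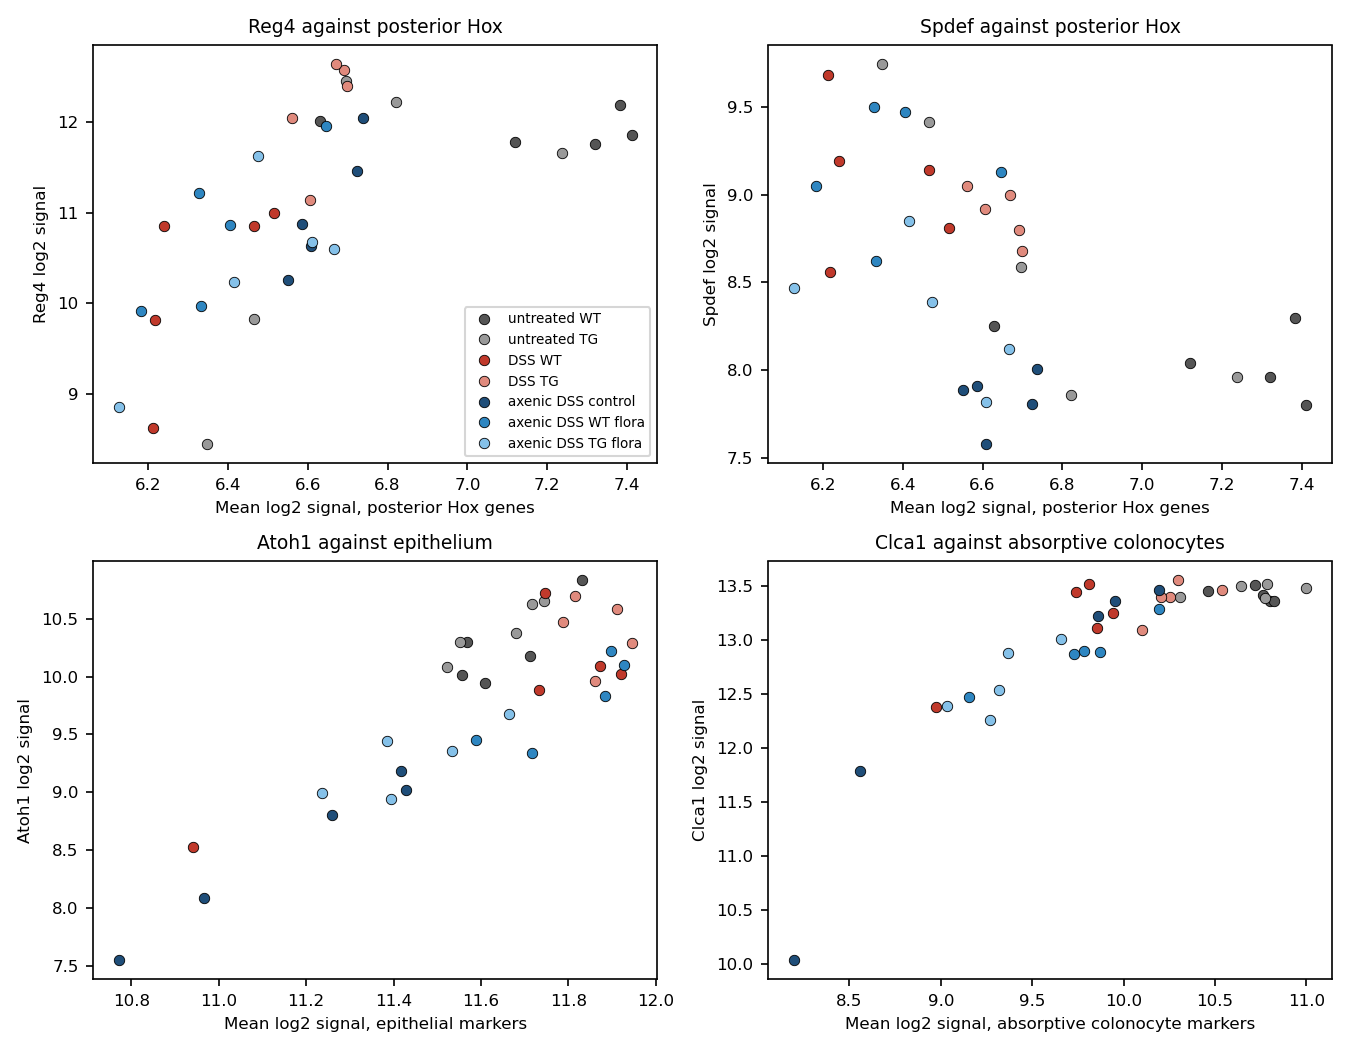
Level of a member against the mean of a marker list in each of 35 mice, both in log2 signal, coloured by group. Reg4 is lower and Spdef higher where posterior Hox genes are lower, and Atoh1 and Clca1 follow the epithelial and absorptive cell lists.

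Reg4 and Spdef ran in opposite directions along the posterior Hox mean over the 35 mice. For Reg4 Pearson's r was 0.64 and Spearman's rho 0.76, and r was 0.65 without the 2 mice farthest from the median Hox mean and 0.59 with all values centred on their group means. For Spdef the corresponding values were -0.57, -0.62, -0.57 and -0.54. Spdef also ran with the mean of the 8 small intestinal genes (r = 0.65, rho = 0.61, 0.53 without 2 mice, 0.74 centred). In size this was above its relation to posterior Hox for r over all mice and for centred values. For rho and without 2 mice it was below. Within the small intestinal list Fabp2 had the widest range (5.51 to 11.62), beside 5.85 to 8.52 for Alpi and 4.69 to 5.27 for Sis. The relation of Spdef to single genes of that list was not examined. Atoh1 followed the mean of the epithelial genes (r = 0.86, rho = 0.69, 0.79 without 2 mice, 0.86 centred), and Clca1 that of 12 absorptive colonocyte genes (r = 0.85, rho = 0.78, 0.84 and 0.89). Without the 4 mice that stood apart the centred values over 31 mice were 0.39 for Reg4 and -0.32 for Spdef with posterior Hox, 0.54 for Spdef with the small intestinal list, 0.81 for Atoh1 and 0.81 for Clca1. These are descriptions over mice, with no test, of genes read on the same arrays.

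Axenic mice that received wild-type flora were set against axenic controls to ask what flora did to the genes under DSS. Spdef, Atoh1, Agr2 and Muc2 were higher with wild-type flora. That is 4 of 8 members in a comparison in which 67.3% of all genes were called, 32.1% in the higher direction, so the count by itself is no result about these genes. After quantile normalization 33.3% of all genes were called, with the epithelial covariate 8.97% and with the pancreas covariate 7.48%, and 61.2% without controls CT517 and CT229. The arrays differed too: their mean SD was 1.96 with wild-type flora and 1.73 in controls.

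Spdef read 8.62, 9.05, 9.13, 9.47 and 9.50 with wild-type flora and 7.58, 7.81, 7.89, 7.91 and 8.01 in controls. The groups were far apart, with a difference of 1.32 (SE 0.16, 95% interval 0.97 to 1.66, limma adjusted p = 0.000236), 2.49 times as high. Agr2 read 12.83, 12.96, 13.08, 13.23 and 13.26 against 12.13, 12.27, 12.35, 12.40 and 12.52, a difference of 0.74 (SE 0.11, limma adjusted p = 0.000451). Neither gene overlapped, as was the case for 44.7% of all genes. Without controls CT517 and CT229 the differences were 1.25 (limma adjusted p = 0.00135) and 0.69 (0.00213).

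Atoh1 read 9.34, 9.45, 9.83, 10.10 and 10.22 with wild-type flora and 7.55, 8.09, 8.80, 9.02 and 9.18 in controls. The low values were those of controls CT517 and CT229. The difference was 1.26 (SE 0.30, 95% interval 0.60 to 1.92, limma adjusted p = 0.00432), and 0.79 without them (0.0099). After quantile normalization of the arrays it was 0.66 (limma adjusted p = 0.134). Muc2 read 13.42, 13.76, 13.79, 13.86 and 13.88 against 12.45, 12.85, 13.31, 13.36 and 13.47, so the groups overlapped. It differed by 0.66 (SE 0.19, 95% interval 0.25 to 1.06, limma adjusted p = 0.00955), and by 0.36 without controls CT517 and CT229 (0.0225).

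Clca1, the mucus metalloprotease, showed how far those 2 controls reached. Clca1 read 12.47, 12.87, 12.89, 12.90 and 13.29 with wild-type flora, and 10.04 and 11.79 in controls CT517 and CT229 beside 13.22, 13.36 and 13.46 in the other 3. Its difference was 0.51 (SE 0.56) with all controls and -0.46 (limma adjusted p = 0.0304) without them. Zg16 and Tff3 were also lowest in mouse CT517 (12.33 and 12.13). They differed by 0.25 and 0.20, and Reg4 by -0.27, none of which passed.

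The epithelial marker list rose with wild-type flora in 10 of 14 genes, with means of 11.59 to 11.93 against 10.77 to 11.43 in controls. With that mean as a covariate in limma, 2 members were called, both lower: Clca1 at -2.12 (adjusted p = 0.0242) and Reg4 at -2.02 (0.0294). Spdef was at 0.92 (0.0519), Agr2 at 0.44 (0.108), Muc2 at -0.21 and Atoh1 at -0.22. Leukocyte genes rose in 13 of 14 (list means of 8.45 to 10.24 against 7.04 to 8.56) and pancreas genes in 14 of 16 (6.44 to 10.39 against 6.27 to 7.74), and with the pancreas mean as a covariate Muc2 (0.54, adjusted p = 0.197) and Atoh1 (1.49, 0.0704) were no longer called. The part of cell composition in these differences was not tested.

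Transgenic flora was set against the same controls, so these values are not independent of those above. Of 8 members 0 passed, beside 0.337% of all genes, and 4 were at an unadjusted limma p under 0.05, as were 18.1% of genes. They were Atoh1 (0.75, SE 0.29), Spdef (0.49, SE 0.17), Agr2 (0.47, SE 0.14) and Muc2 (0.47, SE 0.20), with limma adjusted p from 0.153 to 0.248. Without controls CT517 and CT229 the differences were 0.28 for Atoh1, 0.42 for Spdef, 0.42 for Agr2 and 0.17 for Muc2, and 0 members passed. With the smooth muscle mean as a covariate Muc2 (0.72, adjusted p = 0.0474), Agr2 (0.56, 0.0448) and Atoh1 (1.33, 0.0172) were called by limma, but so were 36.7% of all genes, about the share of the members. That mean ran from 8.97 to 9.78 with transgenic flora and from 9.45 to 10.24 in controls.

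The direct comparison of the floras asked whether the donor's genotype mattered. No member passed, and 0% of genes did in limma at a Benjamini-Hochberg adjusted p under 0.05, although 34.4% had an unadjusted p under 0.05, among them the 2 members Spdef and Atoh1. Of the 8 members 7 were lower with transgenic flora, with a median difference of -0.27 beside -0.001 for all genes. The median was -0.31 for the 14 epithelial genes, -0.65 for the 12 smooth muscle genes and 0.03 for the 14 leukocyte genes. Spdef read 7.82, 8.12, 8.39, 8.47 and 8.85 with transgenic flora against 8.62 to 9.50 with wild-type flora, where mouse TG749 alone reached into the other group. Its difference was -0.83 (SE 0.21, 95% interval -1.28 to -0.37, limma adjusted p = 0.0695).

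Spdef passed between the floras under some settings. The limma adjusted p was 0.0434 with all 35 arrays in one model, 0.0154 with array weights (-0.95) and 0.0251 without mouse TG749 (-0.96). In those fits 9.68%, 24.5% and 23.6% of all genes passed. Atoh1 read 8.94, 8.99, 9.36, 9.44 and 9.68 against 9.34 to 10.22, a difference of -0.51 (SE 0.20, limma adjusted p = 0.111). Tff3 was at -0.25, and at -0.31 with array weights (limma adjusted p = 0.0453). Epithelial means were 11.24 to 11.66 with transgenic and 11.59 to 11.93 with wild-type flora. With that mean as a covariate Spdef differed by -0.28 and Atoh1 by 0.17 (limma adjusted p = 1 for both).

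In the order of group means, Reg4 was highest in DSS transgenic mice (12.15 ± 0.61, SD, n = 5) and lowest in DSS wild-type mice (10.23 ± 1.01), with untreated wild-type mice second at 11.91 ± 0.18. Spdef was highest with wild-type flora (9.16 ± 0.36) and lowest in axenic controls (7.84 ± 0.16). Muc2 ran from 13.95 ± 0.14 in DSS wild-type mice to 13.09 ± 0.43 in axenic controls, and Agr2 from 13.30 ± 0.10 in DSS transgenic mice to 12.33 ± 0.15 in those controls. Atoh1 was highest in untreated transgenic mice (10.41 ± 0.24) and lowest in axenic controls (8.53 ± 0.69). Without the 4 mice that stood apart the lowest group for Muc2 was untreated wild-type (13.37), the highest for Atoh1 was DSS transgenic (10.40), and untreated transgenic mice were second for Reg4 (12.11). The other first and last places named here did not change. Over the 8 members 48 neighbouring pairs of groups in these orders were set side by side. Ranges overlapped in all 48, and the means differed by more than the larger SD in 9.

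**Figure D4:**
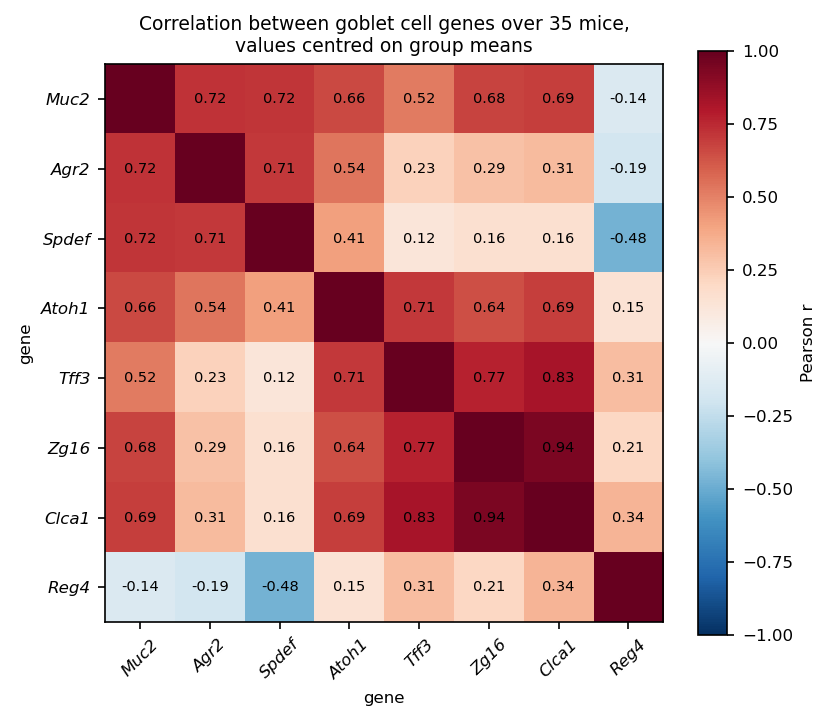
Pearson's r between each pair of measured members over 35 mice, on values centred on group means. Zg16 and Clca1 form the closest pair (0.94), and Spdef and Reg4 the pair farthest below 0 (-0.48). Without the 4 mice that stood apart these values were 0.72 and -0.05.

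On values centred on group means, r over the 35 mice ranged from -0.48 to 0.94 over 28 pairs, with a median of 0.47 and 25 pairs above 0. Muc2 was about as close to the secreted Clca1 (0.69) and Zg16 (0.68) and to Atoh1 (0.66) as to Agr2 (0.72) and Spdef (0.72), and Tff3 was close to Clca1 (0.83) and Atoh1 (0.71). Without the 4 mice that stood apart the range over 31 mice was -0.05 to 0.80, with a median of 0.48 and 27 pairs above 0. Muc2 was then closest to Spdef (0.80) and Agr2 (0.78), with 0.54 for Clca1 and 0.48 for Zg16, and Zg16 with Clca1 was at 0.72. The pairs of Reg4 with Muc2 (0.08), Agr2 (0.04) and Spdef (-0.05) were then near 0. All of these pairs share arrays and pieces of tissue.

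Among all tested genes, those closest to Atoh1 over the 35 mice were Hepacam2 (r = 0.96), Hpd (0.94) and Ern2 (0.94), the last an endoplasmic reticulum stress sensor of goblet cells. Agr2 was closest to the membrane mucin gene Muc4 (0.93), Tspan13 (0.92) and Slc12a8 (0.92). Muc2 was closest to Tspan13 (0.91), Ceacam1 (0.90) and Muc4 (0.90), and Spdef to Cgref1 (0.92), Muc4 (0.89) and Tspan13 (0.87). Zg16 was closest to Clca1 (0.88), Pigr (0.86), which carries immunoglobulin across the epithelium, and Cdhr5 (0.85). Clca1 was closest to Itm2b (0.91), Car4 (0.89) and Nudt4 (0.89), Tff3 to Spink1 (0.88), and Reg4 to Eno3 (0.81), B4galnt3 (0.80) and Gm15401 (0.80). With values centred on group means, Atoh1 kept Hepacam2 first (0.88), Reg4 was closest to B4galnt3 (0.78) and Clca1 to the carbonic anhydrase gene Car4 (0.96). Without the 4 mice that stood apart Hepacam2 (0.93), Ern2 (0.92) and Hpd (0.91) were still the closest to Atoh1, Muc4 (0.92) to Agr2 and Cgref1 (0.91) to Spdef. The closest genes of the others were then Pdia5 for Muc2 (0.90), Cmtm8 for Tff3 (0.82), Cracr2a for Zg16 (0.63), Scin for Clca1 (0.93) and Lsr for Reg4 (0.84).

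**Figure D5:**
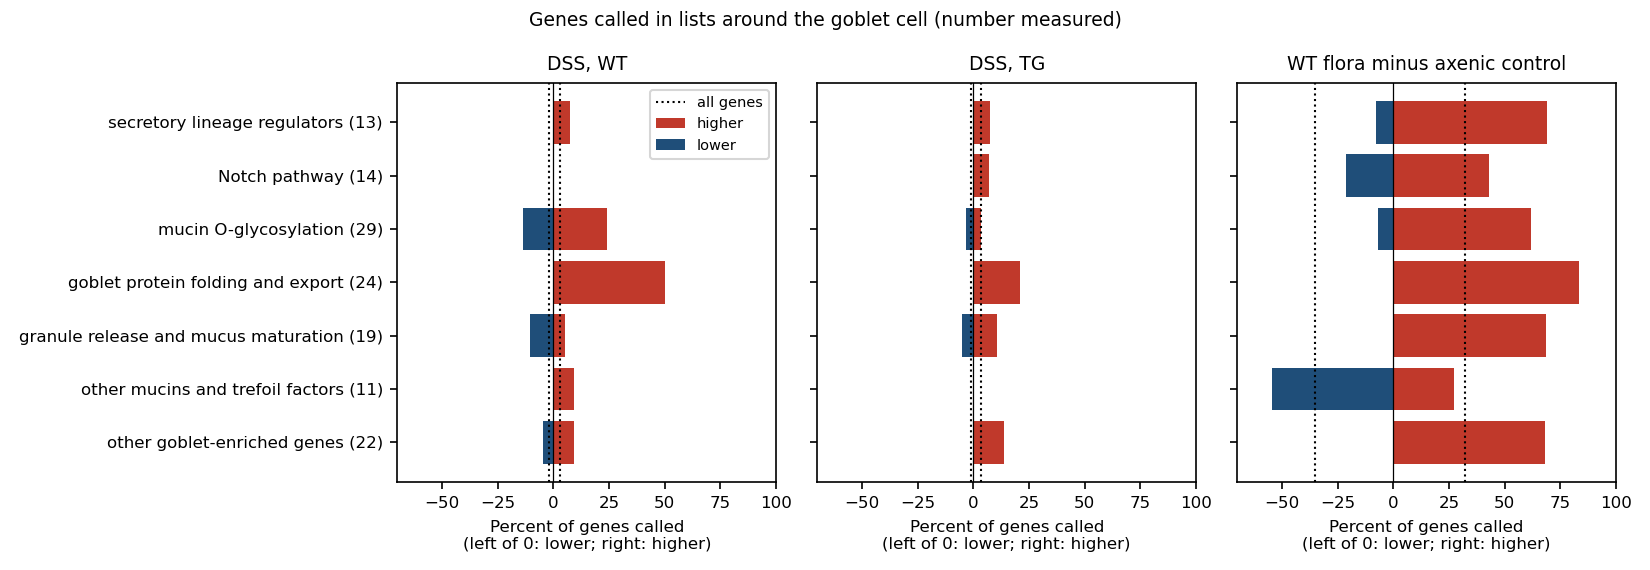
Percent of the measured genes of each of 7 lists of goblet cell function (number in brackets) called higher (right of 0) and lower (left of 0) by limma in 3 comparisons, with dotted lines for the percent of all genes called in each direction. Among these lists folding and export genes have the longest bar for DSS in wild-type mice, 12 of 24 genes, and the bars for wild-type flora stand beside lines at 32.1% higher and 35.2% lower.

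Around the members, the machinery that folds and exports secreted protein rose with DSS in wild-type mice in 12 of 24 genes, with 0 lower, beside 3% of all genes called higher. The list's median change was 0.65. Its genes with the smallest p were the chaperones Hspa5 (1.22, SE 0.13, limma adjusted p = 0.000603) and Hsp90b1 (1.33, SE 0.16, 0.00118), the disulfide isomerase Pdia6 (1.43, SE 0.17, 0.00145) and Dnajc10 (1.43, SE 0.23, 0.00718). In transgenic mice 5 of 24 rose, beside 3.46% of all genes called higher. Among the 5 were Sdf2l1 (0.95, SE 0.13, limma adjusted p = 0.00741) and Pdia6 (0.78, SE 0.15, 0.0189). Such chaperones serve all secretory cells, plasma cells included, and leukocyte genes rose in 11 of 14 in wild-type and 6 of 14 in transgenic mice. The part of those cells was not tested.

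A list of sugar chain genes, not all of them specific to mucins, moved both ways with DSS in wild-type mice. Of its 29 genes 7 were higher and 4 lower, beside 3% and 2.13% of all genes. The fucosyltransferase Fut2 rose by 1.25 (SE 0.11, limma adjusted p = 0.000277) and the sialyltransferase St3gal1 by 1.68 (SE 0.20, 0.0015). B4galnt1, an enzyme of glycolipids rather than of mucin chains, rose by 2.52 (SE 0.22, limma adjusted p = 0.000277). B4galnt3 fell by 1.95 (SE 0.31, limma adjusted p = 0.0072). Fut2 was higher also with DSS in transgenic mice (1.15, SE 0.19, limma adjusted p = 0.0131) and with either flora against the shared controls (1.90 and 1.51). B4galnt1 was called with both floras as well (2.46 and 1.97). Of all genes 32.1% were called higher with wild-type flora and 0.327% with transgenic flora.

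Of 22 other goblet-enriched genes 2 rose and 1 fell with DSS in wild-type mice, beside 3% and 2.13% of all genes. Spink4, a secreted goblet peptide, rose by 1.38 (SE 0.22, limma adjusted p = 0.00728). Ccl9, a chemokine that leukocytes also make, rose by 1.51 (SE 0.19, limma adjusted p = 0.00177). Gsn, which muscle and other cells also make, fell by 1.09 (SE 0.14, limma adjusted p = 0.00256). Spink4 rose by 1.38 in transgenic mice too (SE 0.28, limma adjusted p = 0.0228). It stood 1.89 and 1.53 above the axenic controls with wild-type and transgenic flora. Both were called, beside 32.1% and 0.327% of all genes called higher. In transgenic mice 3 of the 22 were called higher and 0 lower, beside 3.46% of all genes called higher. Of the 29 sugar chain genes 1 was higher and 1 lower in transgenic mice, beside 3.46% and 1.08% of all genes. Without untreated mice TG31 and TG28, 2.56% of all genes were called higher and 1.61% lower in the transgenic DSS comparison. The counts were then 3 higher and 1 lower of the 22 other goblet-enriched genes and 6 of 24 folding genes higher. Of 29 sugar chain genes 5 were higher and 3 lower, and Spink4 was at 1.82.

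Among genes of granule release and mucus maturation, 1 of 19 rose and 2 fell with DSS in wild-type mice, where 3% of all genes rose and 2.13% fell. The crosslinking enzyme Tgm3 fell by 4.14 (SE 0.80, limma adjusted p = 0.0151) and its relative Tgm2 rose by 1.93 (SE 0.32, 0.00783). Tgm2 rose in transgenic mice as well (1.30, SE 0.20, limma adjusted p = 0.0102), where Mep1a, a subunit of the protease meprin, fell by 1.19 (SE 0.17, 0.00743). Of 11 other mucins and trefoil factors Muc4 alone rose in wild-type mice (1.27, SE 0.23, limma adjusted p = 0.0124). In transgenic mice 0 of the 11 passed in limma and 5 had an unadjusted p under 0.05, as did 26.2% of all genes.

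Upstream of the members the calls in conventional mice were near the share of all genes, 5.13% with DSS in wild-type and 4.55% in transgenic mice. Of 13 regulators of the secretory lineage Cdx2 alone rose with DSS in wild-type mice (1.1, SE 0.23, limma adjusted p = 0.0219). Elf3 alone rose in transgenic mice (0.71, SE 0.11, limma adjusted p = 0.0117). Of the 13, 5 had an unadjusted limma p under 0.05 in wild-type and 2 in transgenic mice, beside 16.6% and 26.2% of all genes. Of 14 Notch pathway genes 0 passed in limma in wild-type mice, 3 had an unadjusted p under 0.05 and the list's median was 0.05, and Dll4 alone rose in transgenic mice (0.43, a call lost without untreated mice TG31 and TG28, limma adjusted p = 0.0697). Neither genotype comparison, nor the difference of DSS effects, nor the direct comparison of floras called any of the 132 measured genes of these lists in limma. Without DSS 22 of them had an unadjusted limma p under 0.05 between genotypes and with DSS 30, beside 5% and 5.17% of all genes. For the difference of DSS effects 33 did and between floras 62, beside 7.42% and 34.4% of all genes. Among the 33 were 8 of the 13 regulators.

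With wild-type flora against axenic controls, 9 of 13 regulators were higher and 1 was lower, led by Creb3l4 (1.19, SE 0.13, limma adjusted p = 0.00018), Cdx2 (1.90, SE 0.23, 0.000244) and the forkhead factors Foxa1 (0.94) and Foxa3 (1.13). Neurog3, the factor of enteroendocrine cells, was the lower one (-0.64). Folding genes were higher in 20 of 24, sugar chain genes in 18 of 29, granule genes in 13 of 19 and other goblet-enriched genes in 15 of 22, beside 32.1% of all genes called higher. After quantile normalization, with 15.3% of all genes called higher, these counts were 15 of 24, 11 of 29, 4 of 19 and 3 of 22, and 4 of 13 regulators were higher. Without controls CT517 and CT229, with 30.3% of all genes called higher, they were 20 of 24, 16 of 29, 10 of 19, 11 of 22 and 8 of 13. Of the other mucins 3 were higher and 6 lower (1 and 1 after quantile normalization), with Muc4 at 2.21 (SE 0.18, limma adjusted p = 4.96e-05) and the gastric-type Muc5ac at -0.63 (SE 0.13, 0.00179). Of the Notch pathway 6 were higher and 3 lower of 14. With transgenic flora 2 of 29 sugar chain genes and 1 of 22 other goblet-enriched genes were higher, which were the Fut2, B4galnt1 and Spink4 already given. Without controls CT517 and CT229 all 3 were still called, at 1.52, 2.13 and 1.36.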

How the data were processed

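Values deposited for 28090 probe sets on 35 arrays are log2 signals that the authors made with RMA in Affymetrix Expression Console 1.1, per the submitters' processing notes. RMA adjusts all arrays together, so a level depends on the whole set. Of 23178 annotated probe sets 21639 listed 1 gene symbol and 1539 listed several and were left out, which removed Fcgbp. Genes with several probe sets (990) were read on the one with the highest mean, leaving 19908 genes. The sources used here name no genome build for the array design, and the RefSeq table of GRCm38.p6 supplied names and promoters only.

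Each comparison was fitted to its own arrays with limma 3.58.1 in R 4.3.3 (lmFit and eBayes, two-sided, Benjamini-Hochberg over all genes, called at an adjusted p under 0.05). SE is the moderated standard error and ± the SD over mice. Tables and figures used Python 3.11.15, numpy 2.4.6, pandas 2.3.3, scipy 1.17.1 and matplotlib 3.10.9. The code was run on simulated data with independent noise for each gene, which does not copy how genes move together here. That run checks the code only and not the calls reported.

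Members and gene lists were chosen with earlier results of these data known. All members were named in every comparison, up to 4 called genes with the smallest p from each list (Muc5ac, Neurog3 and genes carried into a second comparison were named after their values were seen), and up to 3 genes closest to each member by Pearson's r. Groups followed the sample titles. No label gives cage, sex or batch, so p-values measure the spread between these mice. Alternatives were array weights, 1 model of all arrays, quantile normalization, a trend and robust variance, probe set rules, a filter on dim genes, covariates of muscle, epithelial, pancreas, Xist and posterior Hox level, and leaving out each mouse. Leaving out untreated transgenic mice TG31 and TG28, axenic controls CT517 and CT229, or all 4, list counts after quantile normalization and the small intestinal relation were chosen after seeing the data.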

Additional observations from a re-analysis of the deposited data

Results flagged for a closer look

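Among the groups of 5 mice, 1 mouse stood apart from its group in 2 of 56 combinations of member and group, by the gap to the nearest mouse over the whole range of the group, for which 0.71 is the critical value. Chance gives about 1 in 20 such groups. Muc2 read 13.42 in recipient WT793 of wild-type flora, where the next mouse read 13.76 (gap over range 0.748). Zg16 read 13.48 in DSS transgenic mouse TG49, where the next mouse read 13.68 (0.895).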

How the results depend on the processing

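Of 744 fits of single members under the alternatives other than leaving out mice, 669 kept the direction and the side of the threshold, 46 reversed, 17 lost a call and 12 gained one, and of 720 fits with 1 mouse left out 684 kept both. No paired analysis was possible because the groups share no replicate numbers. Covariates use up degrees of freedom and overlap with the groups, and the cause of changes under them was not tested. The number of arrays, 5 per group, limits the precision. Counts of called members of 8 moved by more than 1.5 times as follows, from 4 for wild-type DSS, 1 for transgenic DSS, 0 for genotype without DSS, 0 for genotype with DSS, 0 for donor flora, 4 for wild-type flora, 0 for transgenic flora and 0 for DSS by genotype. With the pancreas covariate the count was 1 for wild-type DSS (2.09% of all genes), 0 for transgenic DSS (0.472% of all genes) and 2 for wild-type flora (7.48% of all genes). With the posterior Hox covariate the count was 0 for wild-type DSS (0.0452% of all genes). With all 35 arrays in 1 model the count was 0 for transgenic DSS (3.01% of all genes), 1 for genotype without DSS (0.116% of all genes), 1 for donor flora (9.68% of all genes) and 1 for transgenic flora (3.32% of all genes). With the smooth muscle covariate the count was 0 for transgenic DSS (0.859% of all genes) and 3 for transgenic flora (36.7% of all genes). With the epithelial covariate the count was 0 for transgenic DSS (0% of all genes) and 2 for wild-type flora (8.97% of all genes). With array weights the count was 1 for genotype with DSS (1.7% of all genes), 2 for donor flora (24.5% of all genes) and 1 for transgenic flora (33.4% of all genes). With 1 mouse left out, counts ranged from 0 to 1 for transgenic DSS, 0 to 1 for donor flora and 0 to 1 for transgenic flora. Single members changed the sign of their difference only as follows. With array weights, this was Clca1 at 0.0705 for wild-type DSS, Zg16 at 0.0308 and Atoh1 at 0.0533 for transgenic DSS, Zg16 at -0.0007 for genotype without DSS. With array weights, this was Clca1 at -0.047 for genotype with DSS, Tff3 at -0.0271 and Clca1 at -0.0186 for wild-type flora, Clca1 at -0.43 for transgenic flora. With array weights, this was Tff3 at -0.19 and Clca1 at -0.11 for DSS by genotype. With the smooth muscle covariate, this was Atoh1 at 0.0388 for wild-type DSS, Zg16 at 0.0067 and Atoh1 at 0.0211 for transgenic DSS, Tff3 at 0.27 for transgenic flora. With the posterior Hox covariate, this was Atoh1 at 0.20 for wild-type DSS, Muc2 at 0.0465, Spdef at 0.0901 and Clca1 at -0.39 for genotype with DSS, Reg4 at 1.05 for wild-type flora. With the posterior Hox covariate, this was Tff3 at 0.0475 and Reg4 at 0.093 for transgenic flora, Muc2 at 0.0501, Tff3 at -0.0353 and Spdef at 0.14 for DSS by genotype. With quantile normalization, this was Spdef at -0.0437 for transgenic DSS, Zg16 at -0.0108 for genotype without DSS, Tff3 at 0.0157 for genotype with DSS. With the epithelial covariate, this was Muc2 at -0.0072 and Zg16 at 0.0112 for transgenic DSS, Muc2 at 0.12, Agr2 at 0.16, Clca1 at 0.0759, Reg4 at 0.0431 and Atoh1 at 0.17 for donor flora, Muc2 at -0.21, Tff3 at -0.82, Zg16 at -0.66, Clca1 at -2.12 and Atoh1 at -0.22 for wild-type flora. With the epithelial covariate, this was Zg16 at -0.0673 and Clca1 at -0.80 for transgenic flora, Tff3 at -0.0195, Clca1 at -0.0114 and Atoh1 at -0.0154 for DSS by genotype. With the pancreas covariate, this was Atoh1 at 0.0646 for transgenic DSS, Reg4 at 0.60 for wild-type flora. Without untreated TG31 and TG28, this was Zg16 at 0.0059 and Atoh1 at 0.0292 for transgenic DSS, Reg4 at 0.20 for genotype without DSS. Without axenic controls CT517 and CT229, this was Tff3 at -0.18, Zg16 at -0.0895 and Clca1 at -0.46 for wild-type flora, Zg16 at -0.0229 and Clca1 at -0.73 for transgenic flora. Differences with 1 mouse left out ran through 0 for the following members. For transgenic DSS the ranges were Zg16 -0.0221 to 0.035, Spdef -0.0382 to 0.43 and Atoh1 -0.089 to 0.10. For genotype with DSS the ranges were Muc2 -0.0586 to 0.0279 and Tff3 -0.15 to 0.0783. For donor flora the ranges were Reg4 -0.69 to 0.0008. For wild-type flora the ranges were Tff3 -0.0217 to 0.31 and Clca1 -0.0704 to 0.78. For transgenic flora the ranges were Tff3 -0.27 to 0.0613 and Clca1 -0.34 to 0.52.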
